A study of Homo sapiens and Mus musculus with 100 samples.

Results

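The glutathione transferases described here are 10 genes, GSTA1, GSTA2, GSTA4, GSTP1, GSTK1, GSTO1, GSTZ1, MGST1, MGST2 and MGST3. They were given as a list of names, drawn up with earlier results of these data known, and all 10 were listed in every human table (10 of 28035 genes) and, under the same symbols in mouse case, in every mouse table (10 of 24940 genes). A shared symbol does not make a mouse gene the one-to-one counterpart of the human gene, least of all for Gsta1 and Gsta2. The filter on low values was passed by 9 of the 10 in the HepG2 tables, where GSTP1 fell out, by all 10 in Caco2 and mouse hepatocytes, and by 8 in mouse liver, where Gsta1 and Mgst2 fell out.

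Glutathione transferases join the tripeptide glutathione to electrophilic molecules, which makes them more soluble and ready for export, and several of them also reduce lipid peroxides. The cytosolic enzymes (alpha, pi, omega and zeta classes), the kappa class of mitochondria and peroxisomes, and the membrane-bound microsomal enzymes belong to separate protein families that share this chemistry. Liver is rich in them, and several are textbook targets of xenobiotic-sensing and oxidative-stress transcription factors, among them AhR, the aryl hydrocarbon receptor, and NRF2.

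The study set cells and mice deprived of vitamin B2 (riboflavin, from which the flavin cofactors are made) against controls that had it, and asked what part AhR plays. HepG2, a line from a human liver tumour, was sampled with and without the vitamin on days 3, 6, 9 and 12, and Caco2, a line from a human colon tumour, on day 9. Further HepG2 experiments crossed deprivation, at day 12, with inhibition of AhR, with an inhibitor of IDO and TDO (the enzymes that open the ring of tryptophan on the way to kynurenine), or with guide RNA (gRNA), either a control or one against AhR. A last HepG2 experiment gave DMSO or Kyn, each with or without the AhR inhibitor, and no deprivation is named in its labels. Mouse hepatocytes carried the label AhR_flox in all groups and received Ad-Cont or Ad-Cre, with or without the vitamin, under a label of 4 weeks. Mouse livers came from control or deprived animals at 4 weeks. The labels give neither how much Kyn was used, which inhibitors, the guide site, whether the guide RNA cells are a pool or a clone, the floxed exon, nor the strain, sex or age of the mice. Column headers give an AhR inhibitor concentration of 10 µM for the deprivation experiment.

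All groups held 3 libraries, apart from the 2 liver groups with 4 each, so that 98 libraries were read, at 4049600 to 19644000 reads per library recovered from the deposited values. Values are TPM, reads divided by transcript length and scaled to a fixed total over all entries. The libraries count only 3′ ends, so a TPM is comparable between samples for one gene but not between genes. Log2 differences below are on log2(TPM + 1), given with SE, and adjusted p-values come from limma, over all tested genes of a table (Benjamini-Hochberg, two-sided, threshold 0.05). A gene is called higher or lower when it passes that threshold. Nothing in the labels says that replicates were separate cultures or animals, so p measures only how these samples vary, and that may be technical variation. HepG2 controls held the 7 hepatocyte markers at a summed 6451 to 6507 TPM on day 3 and 25166 to 26362 TPM on day 12. Of the 7 enterocyte markers, Caco2 controls held CDH17 at 65.1 TPM, CDX2 at 38.9, VIL1 at 35.3, MUC13 at 14.7 and KRT20 at 2.89. FABP2 (0.112 TPM) and SI (0.904 TPM) were near 0 there. In the AhR inhibitor experiment, replicate 3 of the controls with inhibitor stood apart from its group. Its chi-square per gene was 27.58 and 29.34 against the other members, whose own was 7.81.

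GSTA1 and GSTA2 lie side by side on chromosome 6 (hg38 chr6:52791380-52803967 and chr6:52750087-52763563, minus strand), with GSTA4 nearby at chr6:52977948-52995380. Their promoters are near copies. Over the 250 bases upstream of the RefSeq starts (GRCh38.p14), 243 positions were the same and 7 differed. The first 99 bases of these windows, which lie upstream of the listed starts too, show how alike they are, with capitals at the 4 bases that differ (C21A, G37T, G50A and C70T, counted from the 5′ end, GSTA1 first). It is shown because both genes moved in the same direction in most comparisons below. Reads from close relatives can be assigned to the wrong one, but this upstream stretch does not show how alike the transcripts are. GSTA1 is chr6:52803968-52804066 and GSTA2 is chr6:52763627-52763725, both on the minus strand.
GSTA1: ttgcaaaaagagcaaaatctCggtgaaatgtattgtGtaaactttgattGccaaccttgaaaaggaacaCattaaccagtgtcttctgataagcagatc
GSTA2: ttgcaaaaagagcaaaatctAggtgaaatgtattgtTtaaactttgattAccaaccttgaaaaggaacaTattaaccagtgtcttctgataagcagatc

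Motifs of both sensing pathways were searched on both strands of the 250 bases upstream of each start, as a description only. TGACNNNGC, the core of the antioxidant response element that NRF2 binds, occurred in 3830 of 35116 RefSeq windows (10.9%), and GCGTG, the core that AhR binds with its partner ARNT, in 11313 (32.2%). A window was found for 9 of the 10 genes, all but MGST2, and RefSeq starts lay 2 bases (MGST1) to 217 bases (GSTP1) from those in the tables for the 5 genes printed here. TGACNNNGC was present for GSTA4, GSTP1 and GSTO1, and GCGTG for GSTZ1 and MGST3. Neither was present in the windows of GSTA1, GSTA2, GSTK1 or MGST1. For the motif genes not printed, the RefSeq start lay 96 bases (GSTA4), 149 bases (GSTZ1) and 361 bases (MGST3) from the listed start. The matches of GSTA4, GSTP1 and MGST3 lie downstream of the listed starts. The windows of GSTO1 (chr10:104254656-104254685, plus strand) and GSTP1 (chr11:67583736-67583765, plus strand) hold TGACNNNGC, in capitals. The MGST1 window is printed up to the base before the start in the table, as the promoter of the gene that differed in every HepG2 deprivation without inhibitor (chr12:16347395-16347642, plus strand, no capitals since it has no match).
GSTO1: ggcggagggaTGACTGAGCatttataactt
GSTP1: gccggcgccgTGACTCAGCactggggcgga
MGST1: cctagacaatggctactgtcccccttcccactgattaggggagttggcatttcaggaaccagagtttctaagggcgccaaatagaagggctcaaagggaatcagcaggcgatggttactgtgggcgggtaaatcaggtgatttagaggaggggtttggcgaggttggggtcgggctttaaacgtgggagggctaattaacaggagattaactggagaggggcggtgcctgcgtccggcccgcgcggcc

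The other genes lie on separate chromosomes in hg38. GSTK1 is at chr7:143263429-143269129, GSTO1 at chr10:104254710-104267464, GSTP1 at chr11:67583595-67586653, MGST1 at chr12:16347643-16364410 and GSTZ1 at chr14:77320887-77331597. MGST2 is at chr4:139665768-139704252 and MGST3 at chr1:165630873-165656135.

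In HepG2 cells the transferases separated step by step over 12 days without vitamin B2. MGST1 was higher in deprived cells from day 3, GSTA1 and GSTA2 from day 6 and GSTO1 from day 9 by limma, while MGST2 was lower from day 6. On day 3, 1 of the 9 tested transferases was called (4.74% of all 12488 tested genes were). On day 6, 4 of 9 were called (33% of all genes), on day 9, 5 of 9 (49.1%), and on day 12, 8 of 9 (52.4%). The median log2 difference of the transferases on day 12 was 0.47, beside 0.10 for all tested genes. Of the 8 called on day 12, 7 were higher and MGST2 was lower.

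**Figure D1:**
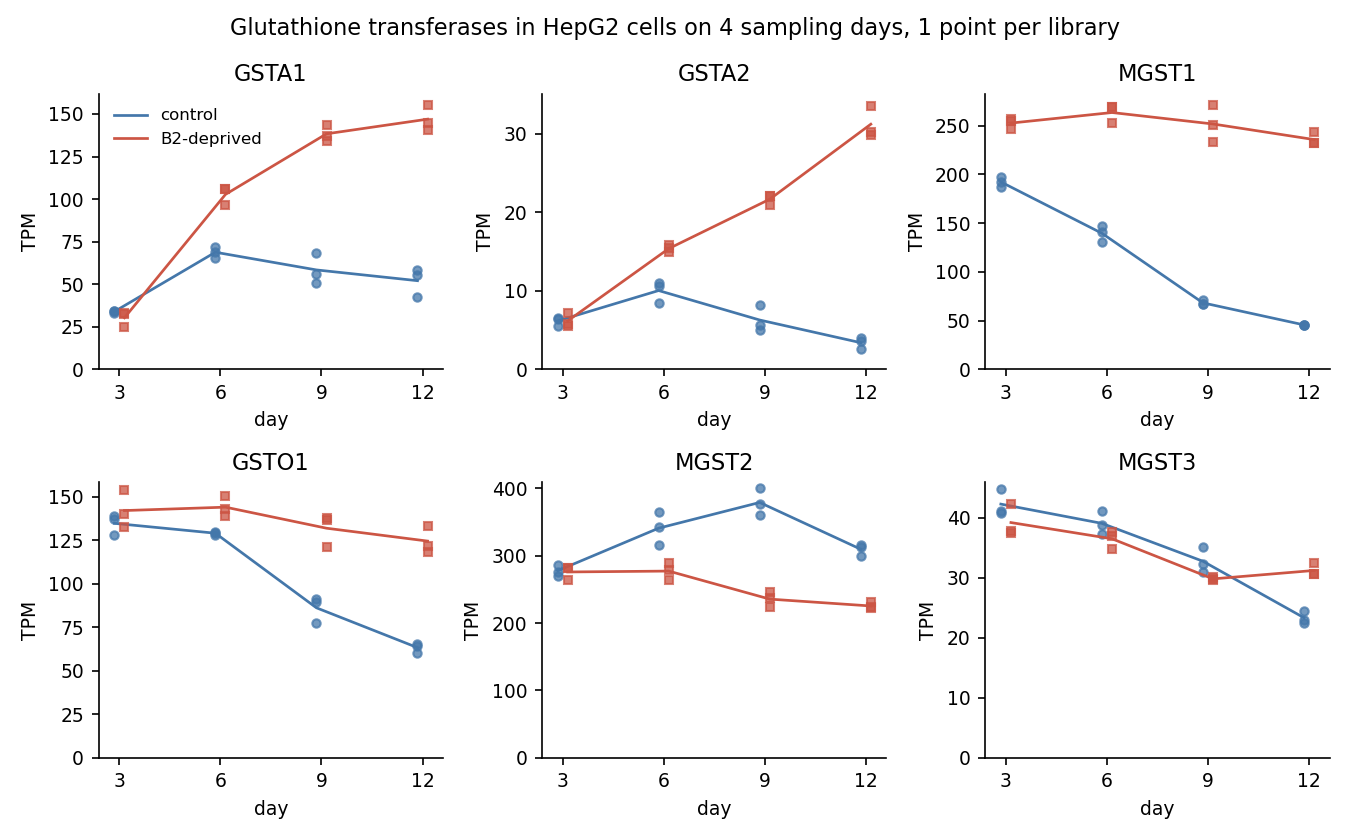
TPM of 6 transferases (y axis, linear from 0) against the day of sampling (x axis) in HepG2 controls (circles) and deprived cells (squares), 1 point per library with lines through the group means. GSTA1 and GSTA2 climbed in deprived cells, whereas MGST1 and GSTO1 dropped in controls and changed less in deprived cells.

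GSTA2, an alpha-class enzyme that also reduces organic hydroperoxides, had the largest log2 difference of the 9. On day 3 its libraries read 5.51, 6.47 and 6.49 TPM in controls and 5.57, 7.12 and 5.81 in deprived cells, which overlap. On day 12 they read 2.62, 3.96 and 3.60 TPM against 33.6, 30.2 and 29.8, groups far apart, with a log2 difference of 2.89 ± 0.13 (SE, adjusted p = 3.65e-14). That was the 23rd largest absolute log2 difference of 12488 genes. Day 6 gave 0.58 ± 0.13 (SE, adjusted p = 0.00165) and day 9 1.66 ± 0.13 (SE, adjusted p = 7.2e-10). Within the deprived cells GSTA2 rose by 2.17 ± 0.13 (SE, adjusted p = 6.92e-12) between days 3 and 12, and within controls it fell, at -0.71 ± 0.13 (SE, adjusted p = 5.77e-05).

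GSTA1, its neighbour and closest relative, followed the same course at a smaller log2 difference. Day 3 libraries held 33.2, 34.5 and 34.0 TPM in controls and 25.0, 33.1 and 32.8 without the vitamin. By day 12 controls held 55.2, 42.5 and 58.6 TPM and deprived cells 156, 140.4 and 145, with no overlap and a log2 difference of 1.49 ± 0.11 (SE, adjusted p = 1.9e-10). GSTA1 also rose in controls between days 3 and 12 (0.59 ± 0.11 SE, adjusted p = 6.13e-05), unlike GSTA2. With the TPM of both genes summed, the control change read 0.45, the sign of GSTA1. In deprived cells the rise was 2.25 ± 0.11 (SE, adjusted p = 2.85e-13).

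MGST1, a membrane-bound transferase and peroxidase of the endoplasmic reticulum and outer mitochondrial membrane, took another course. Its controls read 192, 198 and 187.4 TPM on day 3 and 45.6, 45.5 and 45.8 on day 12, a log2 difference of -2.05 ± 0.05 (SE, adjusted p = 4.87e-19). Deprived cells read 246, 255 and 257 TPM on day 3 and 244, 232 and 232 on day 12, and the change between these was not called (-0.10 ± 0.05 SE, adjusted p = 0.119). The gap between the groups measured 0.39 ± 0.05 (SE, adjusted p = 5.03e-05) on day 3, 0.91 ± 0.05 (SE, adjusted p = 6.7e-12) on day 6, 1.87 ± 0.05 (SE, adjusted p = 7.64e-18) on day 9 and 2.34 ± 0.05 (SE, adjusted p = 8.42e-20) on day 12.

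GSTO1, the omega-class enzyme with thioltransferase and dehydroascorbate reductase activity, behaved likewise. Controls read 139, 128 and 137 TPM on day 3 and 64.2, 65.5 and 60.2 on day 12, against 133, 139.8 and 154 and 133, 118 and 122 in deprived cells. The groups overlapped on day 3 and were apart on day 12, at 0.96 ± 0.07 (SE, adjusted p = 4.95e-11). On day 6 they were already apart, at 129, 128 and 129.8 TPM against 139, 150.1 and 143, which limma did not call (0.16 ± 0.07 SE, adjusted p = 0.0785) and voom, limma's method for counts, did on reads recovered from the TPM (0.20, adjusted p = 0.0122). The smaller decrease inside the deprived cells (-0.19 ± 0.07 SE, adjusted p = 0.0238) was called, but not without day 3 replicate 3 (adjusted p = 0.15), day 12 replicate 2 (0.105) or day 12 replicate 3 (0.0749).

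MGST2, a membrane-bound enzyme able to make leukotriene C and to reduce peroxides, was the one transferase lower in deprived cells. Day 12 libraries held 313, 316 and 299.9 TPM in controls and 223.2, 222 and 231 without the vitamin, which do not overlap, a log2 difference of -0.46 ± 0.05 (SE, adjusted p = 2.95e-07). The gap was widest on day 9, at -0.68 ± 0.05 (SE, adjusted p = 7.2e-10). In controls MGST2 was 0.16 higher on day 12 than on day 3 (adjusted p = 0.0151), a call lost without day 3 control replicate 3 (adjusted p = 0.061) or day 12 control replicate 2 (0.0518). In deprived cells it fell, at -0.29 ± 0.05 (SE, adjusted p = 0.00013), a call lost under median scaling (-0.13, adjusted p = 0.0637).

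The remaining transferases moved less. MGST3, another membrane-bound peroxidase, read 24.5, 22.5 and 23.1 TPM in controls and 30.7, 32.4 and 30.6 in deprived cells on day 12, a log2 difference of 0.40 ± 0.06 (SE, adjusted p = 6.09e-06) between groups that do not overlap. GSTA4, which conjugates the lipid peroxidation product hydroxynonenal, read 10.7, 9.14 and 14.3 against 16.3, 16.8 and 14.6 TPM (0.47 ± 0.11 SE, adjusted p = 0.00117). Both had fallen in controls since day 3, at -0.83 ± 0.06 and -0.64 ± 0.11 on the log2 scale (adjusted p = 4.06e-11 and 2.91e-05). GSTK1, the kappa-class enzyme, was called on day 12 at 0.22 ± 0.09 (SE, adjusted p = 0.0396), but leaving out replicate 1 or 2 of either medium ended that call (adjusted p = 0.0549 to 0.174), as did quantile (0.097, adjusted p = 0.382) and median scaling (0.14, adjusted p = 0.186) and dropping the filter (0.0713). GSTZ1, the maleylacetoacetate isomerase of tyrosine breakdown, was not called on any day and stood at -0.24 ± 0.18 (SE, adjusted p = 0.3) on day 12. On day 9 GSTK1 became called without control replicate 3 (adjusted p = 0.0242), and MGST3, at a negative difference, without control replicate 2 (0.0429).

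Counted within each medium, 8 of 9 transferases were called between days 3 and 12 in controls, 2 higher and 6 lower, where 66.9% of all genes were called. In deprived cells 7 of 9 were called, 2 higher and 5 lower (49.7% of all genes). Under quantile or median scaling that second count was 4, with GSTK1 and GSTO1 lost in both, GSTZ1 under quantile and MGST2 under median scaling. GSTK1 in deprived cells was called at -0.27 ± 0.09 (SE, adjusted p = 0.0157), but not without day 3 replicate 1 (adjusted p = 0.0982) or day 12 replicate 3 (0.0914). The deprivation effect itself differed between days 3 and 12 for 7 of 9, against 37.7% of all genes. Differences of effects were 2.89 ± 0.19 (SE, adjusted p = 6.22e-11) for GSTA2, 1.95 ± 0.07 (SE, adjusted p = 6.38e-15) for MGST1 and 1.66 ± 0.15 (SE, adjusted p = 2.79e-08) for GSTA1. GSTK1 joined these 7 without day 3 deprived replicate 1 (adjusted p = 0.0418) or day 12 deprived replicate 3 (0.0487).

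GSTP1, the pi-class enzyme, was all but absent from HepG2. It had 0 reads in 65 of the 72 HepG2 libraries and 15 reads in all, at most 5 in a library or 0.379 TPM. A library with 0 reads allows up to 3 by counting error, so differences in GSTP1 were not detectable at this depth.

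Across the 24 time course libraries, the genes whose log2(TPM + 1) followed GSTA2 most closely, of 4671 with a mean of at least 10 TPM, were CTSH (Pearson r = 0.949), MTRNR2L3 (0.932), SPTSSA (0.921), GNG5 (0.913) and AK3 (0.911). Those most like MGST2 were OBSL1 (0.943), FAM19A5 (0.939), ADH5 (0.936), PGM1 (0.924) and PPP1CC (0.917). Among the transferases GSTO1 and MGST1 were most alike (0.941), then GSTA1 and GSTA2 (0.858), while MGST1 and MGST2 ran opposite (-0.689). These libraries share their days and media, so the values only describe this series of samples.

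Other genes of glutathione metabolism, from fixed lists, were read at day 12 as well, when 52.4% of all tested genes were called. All 7 tested genes of glutathione synthesis and reduction were higher, among them GCLM (log2 difference 1.61) and GCLC (0.76), the subunits of the rate-limiting ligase, and glutathione reductase GSR (1.03), and their median was 0.78 beside 0.10 for all tested genes. Of 13 genes on the list of peroxidases, glutaredoxins and glyoxalases, 10 were higher and 1 lower (median 0.57). GPX1 stood at 1.62, GPX2 at 1.37, GPX4 at 0.95 and the glyoxalase gene HAGH at -0.37. Of 11 genes that break down glutathione or finish mercapturates, 4 were higher and 2 lower, with a median of 0.15 (NAT8 1.13, GGCT 0.82, ACY3 -1.28, ANPEP -0.73). Of 7 conjugate exporters, 3 were higher and 1 lower, with a median of 0.25 (ABCC3 1.75, ABCC1 1.01, ABCC2 -0.18). Of the 5 tested transferases outside the 10, GSTO2 (0.61) and GSTM4 (0.47) were higher, and the median was 0.47. The counts called among breakdown genes, exporters and these other transferases lay near the share of all tested genes.

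Hepatocyte markers moved alongside. Their summed level was 5560.4 to 5898 TPM in deprived cells against 6451 to 6507 in controls on day 3 and 7083 to 7438 against 25166 to 26362 TPM on day 12, when 6 of 7 markers were lower and FGB was higher. In bulk RNA fewer cells of a type and less RNA per cell cannot be told apart, and the part of this difference in the transferase values was not tested. CYP1A1, the standard AhR target, read 23.8 TPM in deprived cells against 3.57 in controls on day 12, and NQO1, a target shared by AhR and NRF2, 269 against 80.7.

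HepG2 was deprived again in 3 later experiments, each with its own controls, so 5 comparisons at day 9 or day 12 can be set side by side. GSTA1 was called higher in 5 of 5 (log2 differences 1.24 to 1.49), GSTA2 in 5 of 5 (1.66 to 2.89), MGST1 in 5 of 5 (1.87 to 2.87) and GSTO1 in 5 of 5 (0.48 to 0.96). MGST2 was called lower in 5 of 5 (-1.08 to -0.46). Each of these comparisons called 49.1% to 67.9% of all tested genes, and how many genes were called in all 5 was not counted. The others did not hold one pattern. GSTA4 was higher in 2 and lower in 1, MGST3 higher in 2, GSTK1 higher in 1 and GSTZ1 lower in 1. These smaller counts turned with the scaling. Under quantile and median scaling MGST3 was called lower on day 9 (-0.21 and -0.18), without the AhR inhibitor (-0.43 and -0.45) and without the IDO/TDO inhibitor (-0.28 and -0.31), and it was not called with the control gRNA. Quantile normalization also called GSTA4 lower on day 9 (-0.29, adjusted p = 0.0378), and neither scaling called GSTK1 on day 12. The day 9 and day 12 comparisons are from one experiment with separate libraries.

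**Figure D2:**
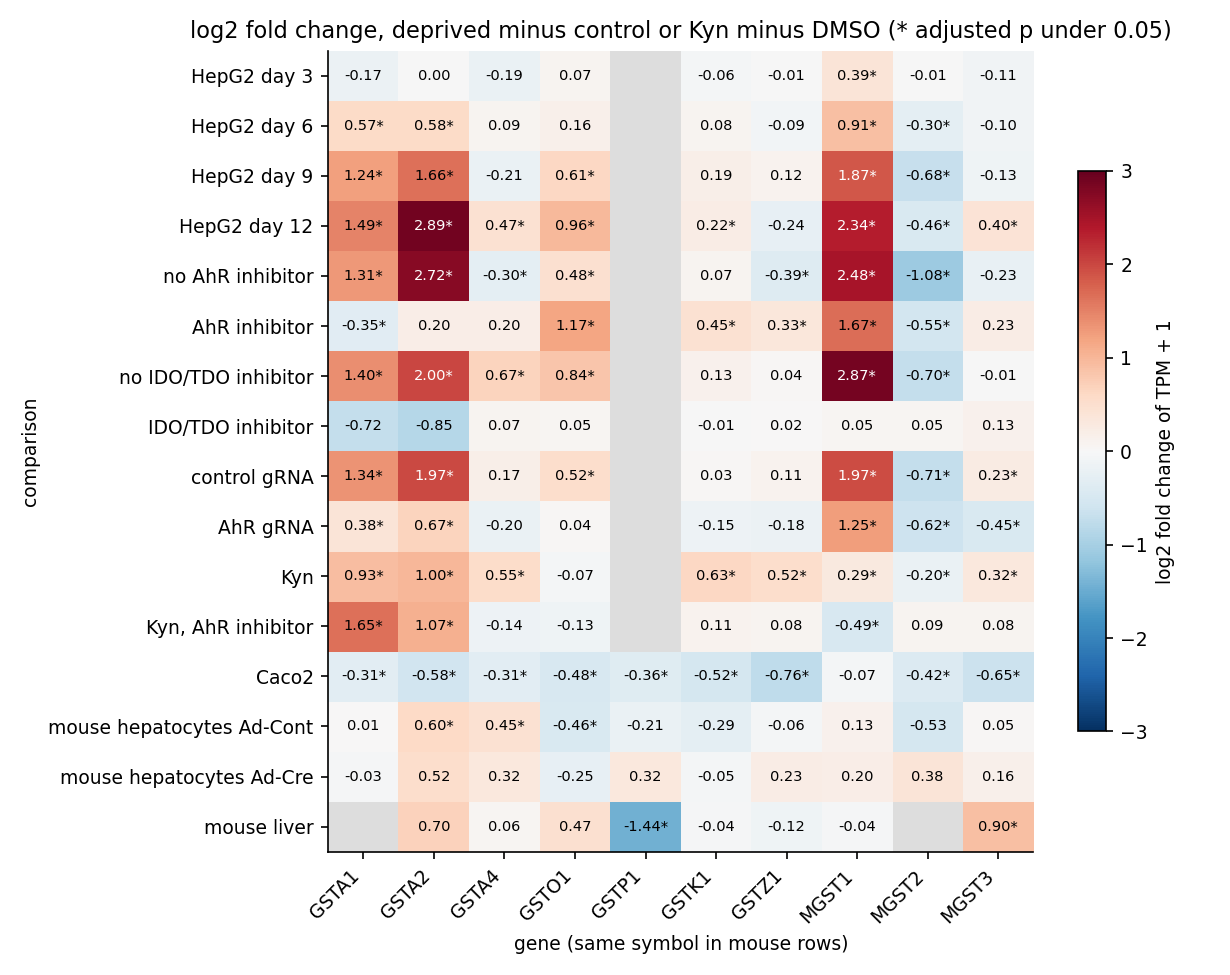
Log2 difference of TPM + 1 (colour, printed in each cell) for the 10 transferases (columns) in 16 comparisons (rows), deprived minus control or Kyn minus DMSO, with an asterisk where the adjusted p was under 0.05 and grey where the gene was not tested. GSTA1, GSTA2, MGST1 and GSTO1 are red and MGST2 blue in the HepG2 deprivations without an inhibitor or AhR gRNA from day 9, and the Caco2 row is blue for 9 genes.

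Of these repeats, the experiment with the AhR inhibitor held its uninhibited libraries in a run named NextSeq2000 in the column headers and its inhibited ones under another date. Effects of the inhibitor cannot be told apart from that difference, whereas each deprivation effect lies within one set. Without the inhibitor 7 of 9 transferases were called, 4 higher and 3 lower, against 61.5% of all 11916 tested genes. With it 6 of 9 were called, 4 higher and 2 lower (57.5% of all genes). The median over all tested genes was 0.23 and 0.24 log2 in these comparisons.

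With the AhR inhibitor present, GSTA1 and GSTA2 were not called higher in deprived cells, while MGST1 and GSTO1 were. GSTA1 read 75.0, 67.0 and 72.7 TPM in controls and 182, 178 and 177 in deprived cells without inhibitor (1.31 ± 0.10 SE, adjusted p = 2.14e-07). With inhibitor it read 164, 128 and 116 against 107, 100.0 and 110.0, slightly lower in deprived cells (-0.35 ± 0.10 SE, adjusted p = 0.0101). The difference between these effects was -1.66 ± 0.14 (SE, adjusted p = 4.8e-06). GSTA2 read 5.81, 4.35 and 5.83 TPM against 40.7, 41.7 and 38.9 without and 21.2, 13.9 and 12.7 against 19.3, 15.6 and 19.5 with inhibitor. Its effect was 2.72 ± 0.16 without (adjusted p = 2.38e-08) and 0.20 ± 0.16 with it (adjusted p = 0.296), a difference of -2.52 ± 0.23 (SE, adjusted p = 7.99e-06). Leaving out inhibited control replicate 1 made the inhibited GSTA2 difference 0.41 and called (adjusted p = 0.0146).

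MGST1 kept a called difference on both sides. It read 58.3, 54.4 and 56.5 TPM in controls against 327, 314 and 318 in deprived cells without inhibitor, and 82.1, 68.8 and 103 against 264, 262 and 279 with it. The effects were 2.48 ± 0.11 and 1.67 ± 0.11 log2 (adjusted p = 8.31e-10 and 5.07e-08), with a difference between them of -0.81 ± 0.15 (SE, adjusted p = 0.00184). GSTO1 had the larger effect with the inhibitor, 1.17 ± 0.11 against 0.48 ± 0.11 (adjusted p = 1.79e-06 and 0.00234), a difference of 0.69 ± 0.16 (SE, adjusted p = 0.007). Its uninhibited call was lost under median scaling (0.26, adjusted p = 0.13). MGST2 was lower on both sides, -1.08 ± 0.06 without and -0.55 ± 0.06 with inhibitor (adjusted p = 5.57e-09 and 4.25e-06).

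All 9 tested transferases were called for the difference between the effects, 6 positive and 3 negative, where 22.5% of all genes were. For GSTA4, GSTK1 and MGST3 that call was not stable. It was lost in 6 (GSTA4), 8 (GSTK1) and 6 (MGST3) of the 12 fits that left out 1 library, and for all 3 genes in both scalings and without the filter (adjusted p = 0.05 to 0.09), and held without inhibited control replicate 3. Among the smaller deprivation effects without inhibitor, GSTA4 (-0.30) was not called without replicate 1 or 2 of either medium (adjusted p = 0.065 to 0.119), without the filter (0.0575) or by voom (0.145). GSTZ1 (-0.39) was not called without control replicate 1 (0.0599), without deprived replicate 3 (0.0536) or by voom (0.0528). With inhibitor GSTZ1 (0.33) was not called without inhibited control replicate 1 (0.075) or inhibited deprived replicate 2 (0.136), nor under quantile (0.086, adjusted p = 0.571) or median scaling (0.077, adjusted p = 0.609). GSTK1 with inhibitor was not called under median scaling (0.20, adjusted p = 0.0975). Without inhibited control replicate 1 MGST3 was called (0.33, adjusted p = 0.00995), and without inhibited deprived replicate 3 so was GSTA4 (0.0441). Leaving out inhibited control replicate 3, the library that stood apart, kept the counts at 6 and 9 transferases and gave GSTA1 -0.45, GSTA2 0.067, GSTO1 1.01 and MGST1 1.82 with inhibitor.

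CYP1A1 read 14.6 TPM in deprived cells against 2.68 in controls without the inhibitor and 1.63 against 4.01 with it. NQO1 read 294 TPM in deprived cells against 73.3 in controls without the inhibitor and 360 against 106 with it. Summed hepatocyte markers were lower in deprived cells on both sides, at 5478 to 5685 against 24695 to 26869.9 TPM without and 5926 to 6441 against 23821 to 28341 TPM with the inhibitor, and their part in the result was not tested. The synthesis and reduction list had 7 of 7 genes higher without and 6 of 7 with inhibitor, with medians of 1.67 and 1.01 log2 and GCLM at 2.59 and 1.31.

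With the IDO/TDO inhibitor no transferase was called between deprived and control cells. Without it 6 of 9 were called, 5 higher and 1 lower (67.9% of all 11470 tested genes). With it limma called 0 of 9, where 1.39% of all genes were called. At an unadjusted p under 0.05 there were 2 of 9, and voom called 1. Over all 11470 tested genes, 1430 had an unadjusted p under 0.05 with the inhibitor, and voom called 339. The median over all tested genes was 0.30 log2 without and 0.03 with the inhibitor, and 0.67 and 0.05 over the transferases.

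MGST1 showed it most clearly. Without the inhibitor its libraries held 33.0, 35.2 and 34.2 TPM in controls and 250.4, 253 and 264 in deprived cells, a log2 difference of 2.87 ± 0.07 (SE, adjusted p = 1.5e-14). With it they held 36.8, 36.6 and 35.1 against 39.02, 33.2 and 40.8, which overlap (0.05 ± 0.07 SE, adjusted p = 0.855). GSTO1 read 92.3, 82.2 and 92.7 TPM against 169.9, 159 and 152 without and 88.7, 89.1 and 86.5 against 92.6, 99.1 and 83.1 with inhibitor, so its groups came to overlap as well. Its effect was 0.84 ± 0.07 log2 without and 0.05 ± 0.07 with the inhibitor (adjusted p = 3.34e-08 and 0.857).

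For GSTA1 and GSTA2 the mean of the inhibited, deprived cells lay below that of their controls, though neither was called. GSTA1 read 60.0, 46.9 and 50.4 TPM against 138, 139 and 143 without inhibitor (1.40 ± 0.17 SE, adjusted p = 2.84e-05). With it the libraries read 56.0, 53.4 and 55.5 in controls and 40.4, 23.7 and 37.3 in deprived cells, with no overlap, at -0.72 ± 0.17 (SE, adjusted p = 0.0782). That difference was called without inhibited deprived replicate 1 (adjusted p = 0.0359) or replicate 2 (0.0173). GSTA2 read 5.71, 3.45 and 5.25 TPM against 19.8, 21.4 and 24.8 without (2.00 ± 0.23 SE, adjusted p = 1.57e-05) and 3.19, 4.66 and 4.97 against 1.35, 1.55 and 3.05 with the inhibitor (-0.85 ± 0.23 SE, adjusted p = 0.128). It was called without inhibited deprived replicate 3 (adjusted p = 0.0112).

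**Figure D3:**
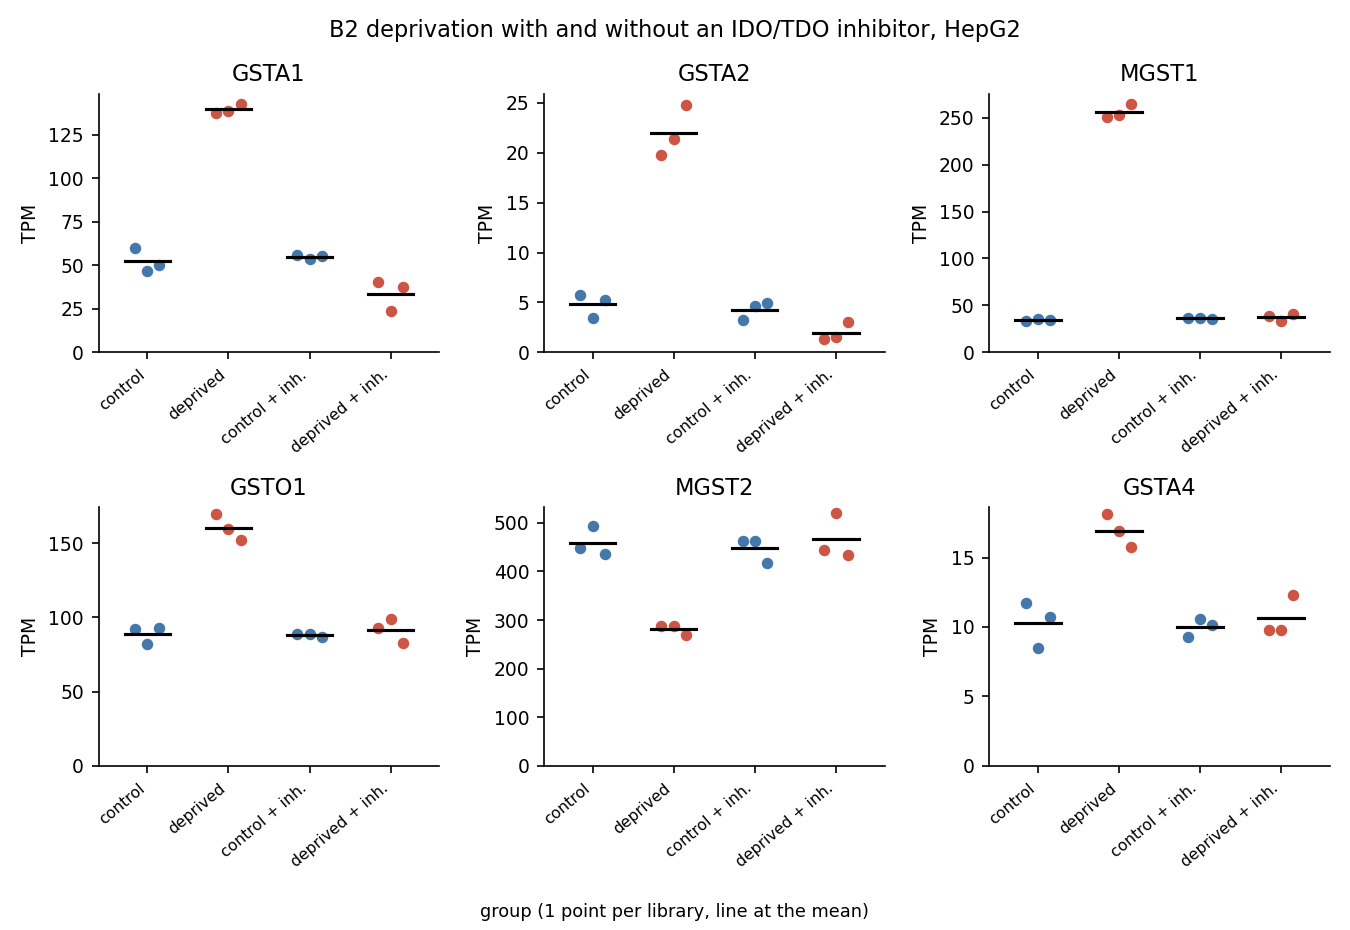
TPM of 6 transferases (y axis, linear from 0) in HepG2 controls and deprived cells without and with the IDO/TDO inhibitor (inh.), 1 point per library with a line at the mean. The deprived cells without inhibitor stand apart from the other 3 groups in each panel.

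MGST2 followed the same scheme with the opposite sign. Its libraries held 448, 493 and 435 TPM in controls and 287, 287 and 269.7 in deprived cells without inhibitor (-0.70 ± 0.07 SE, adjusted p = 2.49e-07), then 462, 463 and 418 and 444, 519.7 and 434 with it (0.05 ± 0.07 SE, adjusted p = 0.849). GSTA4, at 10.3 and 16.9 TPM on average without inhibitor, gave 0.67 ± 0.11 (SE, adjusted p = 5.75e-05), and 0.07 ± 0.11 with it (adjusted p = 0.868). GSTK1, GSTZ1 and MGST3 were not called on either side, although GSTZ1 was called lower in the uninhibited comparison under quantile normalization and under median scaling (-0.27 in both). MGST3 was likewise called lower there under quantile normalization (-0.28, adjusted p = 0.0085) and median scaling (-0.31, adjusted p = 0.00361), and voom called GSTK1 higher (0.21, adjusted p = 0.0243).

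The deprivation effects differed with the inhibitor for 6 of 9 transferases (53.7% of all genes), 5 negative and MGST2 positive. The differences were -2.85 ± 0.32 (SE, adjusted p = 2.96e-05) for GSTA2, -2.82 ± 0.10 (SE, adjusted p = 4.9e-12) for MGST1, -2.12 ± 0.23 (SE, adjusted p = 3.32e-05) for GSTA1, -0.79 ± 0.10 (SE, adjusted p = 7.5e-06) for GSTO1 and 0.76 ± 0.10 (SE, adjusted p = 1.08e-05) for MGST2. For GSTA4 it was -0.60 ± 0.16 (SE, adjusted p = 0.00447), a call lost under quantile (adjusted p = 0.12) and median scaling (0.137). Among deprived cells alone, the inhibitor called 7 of 9 (65.7% of all genes), 6 lower and MGST2 higher. MGST1 was -2.74 ± 0.07 log2 lower and GSTA2 -2.98 ± 0.23 (adjusted p = 2.95e-14 and 6.32e-07). GSTK1 was among the 6, at -0.24 ± 0.08 (adjusted p = 0.0116), but not without inhibited deprived replicate 2 (0.0633), and both scalings brought it to about 0 (0.0019 and 0.0169). MGST3, at -0.01, read 0.24 and 0.25 under these scalings.

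Hepatocyte markers moved with these values. They summed to 7411 to 7671 TPM in deprived cells against 26294 to 27683 in controls without the inhibitor (6 of 7 lower, 1 higher) and to 23932 to 24739 against 27356 to 28083 with it (1 of 7 lower), and their part in the result was not tested. CYP1A1 read 22.2 against 6.64 TPM without and 8.99 against 7.17 with the inhibitor, and NQO1 259.9 against 51.7 and 46.8 against 51.8. All 7 tested synthesis and reduction genes were higher without the inhibitor. With it limma called 0, with 0 at an unadjusted p under 0.05 and 0 by voom, and GCLM stood at 2.24 without and 0.11 with the inhibitor.

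Several transferases were higher with the guide RNA against AhR in cells that had the vitamin. In controls, 7 of 9 were called higher with the AhR gRNA than with the control gRNA and 0 lower, against 36.7% of all 11893 tested genes. GSTA1 read 51.3, 44.0 and 63.5 TPM with the control and 122, 129.8 and 125 with the AhR gRNA, groups that do not overlap (1.25 ± 0.10 SE, adjusted p = 1.64e-06). GSTA2 read 5.06, 4.99 and 8.62 against 16.5, 17.0 and 17.2 (1.34 ± 0.14 SE, adjusted p = 9.79e-06), and MGST1 68.4, 69.0 and 87.0 against 111, 117 and 113 (0.61 ± 0.08 SE, adjusted p = 4.43e-05). The 4 others called were GSTA4 (0.57), MGST3 (0.50), GSTO1 (0.41) and GSTK1 (0.30). The GSTK1 call was lost without replicate 2 of the control gRNA controls (adjusted p = 0.0628) or of the AhR gRNA controls (0.0672) and under quantile (0.0981) and median scaling (0.0525), and MGST2 was called lower without replicate 3 of the control gRNA controls (0.0168).

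Among deprived cells no transferase was called between the guides. There limma called 0 of 9, where 12% of all genes were called, with 2 of 9 at an unadjusted p under 0.05. Over all 11893 tested genes, 3028 had an unadjusted p under 0.05, and voom called 1893. GSTA1 read 139, 128 and 134 TPM with the control and 179, 158 and 157 with the AhR gRNA (0.30 ± 0.10 SE, adjusted p = 0.0805), its groups not overlapping. It was the 1 transferase called by voom on recovered reads (adjusted p = 0.00155). GSTA2 read 26.6, 26.6 and 26.7 against 26.9, 27.5 and 27.8, and MGST1 289, 304 and 288 against 285, 257 and 273. MGST3 was called at -0.25 without replicate 3 of the deprived AhR gRNA cells (adjusted p = 0.0366).

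**Figure D4:**
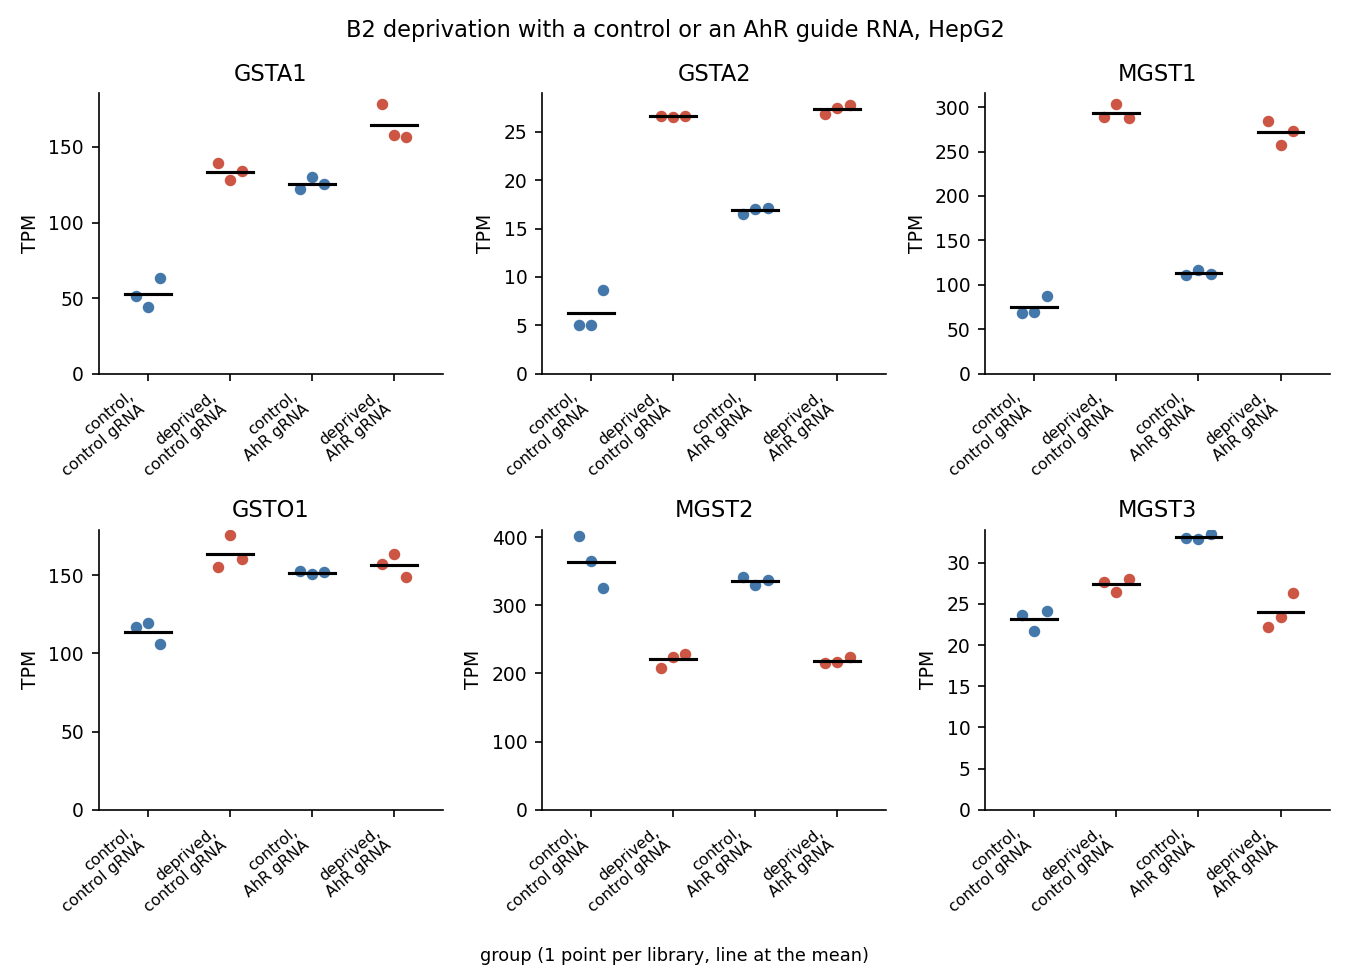
TPM of 6 transferases (y axis, linear from 0) in HepG2 controls and deprived cells under either guide, 1 point per library with a line at the mean. Controls with the AhR gRNA lie above those with the control gRNA for GSTA1, GSTA2, MGST1, GSTO1 and MGST3, and for these genes the deprived groups lie nearer to each other than the controls do.

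Seen as deprivation effects, 6 of 9 transferases were called with the control gRNA, 5 higher and 1 lower (60.7% of all genes), and 5 of 9 with the AhR gRNA, 3 higher and 2 lower (53.2%). Under quantile and median scaling GSTA4 (-0.34 and -0.35) and GSTK1 (-0.24 and -0.30) were also called lower with the AhR gRNA, which made it 3 higher and 4 lower. GSTA1 had 1.34 ± 0.10 (SE, adjusted p = 1.45e-07) with the control and 0.38 ± 0.10 (SE, adjusted p = 0.00641) with the AhR gRNA. GSTA2 had 1.97 ± 0.14 (SE, adjusted p = 6.06e-08) and 0.67 ± 0.14 (SE, adjusted p = 0.00115). MGST1 had 1.97 ± 0.08 (SE, adjusted p = 1.27e-10) and 1.25 ± 0.08 (SE, adjusted p = 2.2e-08), with deprived cells above their controls under both guides. GSTO1, at 117, 119 and 106 and 155, 176 and 160.3 TPM with the control gRNA, read 152, 151 and 152 and 157, 163 and 149 with the AhR gRNA, so that the groups came to overlap.

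The effects differed between guides for 5 of 9 (14.4% of all genes), all negative, namely GSTA2 (-1.30 ± 0.19 SE, adjusted p = 0.000849), GSTA1 (-0.95 ± 0.14 SE, adjusted p = 0.000933), MGST1 (-0.72 ± 0.11 SE, adjusted p = 0.000874), MGST3 (-0.68 ± 0.10 SE, adjusted p = 0.000471) and GSTO1 (-0.48 ± 0.08 SE, adjusted p = 0.00233). GSTA4 became a sixth without replicate 3 of the control gRNA controls (adjusted p = 0.0455). MGST2 was not among them, with -0.71 ± 0.07 and -0.62 ± 0.07 log2 (adjusted p = 5.19e-07 and 3.26e-06). MGST3 went from 0.23 ± 0.07 with the control gRNA to -0.45 ± 0.07 with the AhR gRNA, and its first call was lost under quantile (adjusted p = 0.582) and median scaling (0.647). All tested genes had a median of 0.20 and 0.15 log2 in these comparisons.

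AHR mRNA does not check the edit, since the guide site is not given. CYP1A1 read 33.5 TPM in deprived cells with the control gRNA and 1.74 TPM with the AhR gRNA, beside 4.20 and 1.89 TPM in the respective controls. NQO1 read 235 TPM in deprived cells with the control gRNA and 248 with the AhR gRNA. Its respective controls read 83.6 and 147 TPM. Summed hepatocyte markers were 6228 to 6505 TPM in deprived cells against 24282 to 24821 in controls with the control gRNA and 7457 to 7811 against 19062 to 20167 TPM with the AhR gRNA (6 of 7 lower and 1 higher under each), and their part in the result was not tested. Synthesis and reduction genes were higher under both guides, 7 of 7 each, with medians of 1.46 and 1.45 log2 and GCLM at 1.89 and 1.70.

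In the Kyn experiment most transferases were higher with Kyn than with DMSO. Kyn called 8 of 9, 7 higher and MGST2 lower, where 11.7% of all 11798 tested genes were called. The median was 0.52 log2 for the transferases and 0.02 for all tested genes. GSTA1 read 10.2, 7.19 and 8.87 TPM with DMSO and 20.3, 14.8 and 17.6 with Kyn, a difference of 0.93 ± 0.13 (SE, adjusted p = 0.000616). GSTA2 read 0.337, 1.28 and 0.369 against 2.65, 1.33 and 2.94 (1.00 ± 0.23 SE, adjusted p = 0.0132). GSTA1 and GSTA2 were both higher in each Kyn library than in any with DMSO, but GSTA2 rests on 3 to 12 reads per DMSO library and 14 to 29 per Kyn library.

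GSTK1 had its largest HepG2 log2 difference here, rising from 19.8, 23.5 and 20.9 to 35.7, 32.2 and 32.9 TPM (0.63 ± 0.08 SE, adjusted p = 0.000137). GSTA4 gave 0.55 ± 0.12 (SE, adjusted p = 0.00832), GSTZ1 0.52 ± 0.12 (SE, adjusted p = 0.0117) and MGST3 0.32 ± 0.06 (SE, adjusted p = 0.00484). MGST1, at 56.2, 54.9 and 55.3 against 66.6, 73.2 and 65.0 TPM, differed by only 0.29 ± 0.08 (SE, adjusted p = 0.0253), and GSTO1 was not called (-0.07 ± 0.05 SE, adjusted p = 0.424). Several calls sat close to the threshold. The count was 5 without DMSO replicate 1, DMSO replicate 3 or Kyn replicate 1, and 6 or 7 without another library. GSTA2 was then lost at an adjusted p of 0.0552 to 0.0589, GSTZ1 at 0.051 to 0.0555, MGST2 at 0.0593 and 0.0606 and MGST1 at 0.0527 to 0.0946.

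With the AhR inhibitor, Kyn called 3 of 9 (10.8% of all genes), GSTA1 and GSTA2 higher and MGST1 lower. GSTA1 read 7.70, 7.32 and 8.67 TPM without and 28.2, 23.3 and 29.7 with Kyn (1.65 ± 0.13 SE, adjusted p = 1.4e-05), and GSTA2 0.918, 1.12 and 1.03 against 4.22, 3.17 and 2.53 (1.07 ± 0.23 SE, adjusted p = 0.0101). MGST1 read 56.4, 68.4 and 56.6 against 39.8, 44.8 and 43.8 (-0.49 ± 0.08 SE, adjusted p = 0.00179), the reverse of its difference without inhibitor. The Kyn effects differed with the inhibitor for 5 of 9 (8.94% of all genes), namely MGST1 (-0.78 ± 0.11 SE, adjusted p = 0.000762), GSTA4 (-0.69 ± 0.16 SE, adjusted p = 0.02), GSTK1 (-0.52 ± 0.11 SE, adjusted p = 0.00923), GSTA1 (0.72 ± 0.19 SE, adjusted p = 0.0298) and MGST2 (0.28 ± 0.07 SE, adjusted p = 0.0177). For GSTA1 the call was lost without any of 8 of the 12 libraries (adjusted p = 0.0593 to 0.0719; DMSO replicates 1 and 3, Kyn 2 and 3, inhibited DMSO 1 and 2, inhibited Kyn 1 and 3). The GSTA4 call was lost without the filter (0.0536) and under quantile (0.0608) and median scaling (0.0679), and that of GSTK1 under median scaling (0.059). GSTZ1 was called without DMSO replicate 2 (0.0271). The inhibitor alone, against DMSO, called 0 of 9 transferases and 0% of all genes by limma, with 0 of 9 at an unadjusted p under 0.05 and 0 by voom; over all genes 520 had an unadjusted p under 0.05.

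In the same libraries CYP1A1 read 2.11 TPM with Kyn against 1.73 with DMSO, and 2.38 against 1.07 with the inhibitor. NQO1 read 76.3 against 80.0 TPM and 52.6 against 78.4. Hepatocyte markers summed to 13332 to 14247 TPM with Kyn against 12676 to 13439 with DMSO (2 of 7 higher, 2 lower), and to 15841 to 16800.1 against 12454 to 13059 with the inhibitor (5 of 7 higher), and their part in the result was not tested. Of the 7 synthesis and reduction genes limma called 0 without the inhibitor (2 at an unadjusted p under 0.05, 1 by voom) and 4 lower with it, among them SLC7A11 (-0.59), GCLC (-0.45) and GCLM (-0.43). Without the inhibitor 3232 of all 11798 tested genes had an unadjusted p under 0.05, and voom called 1973.

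In Caco2 most transferases were lower in deprived cells. Of 10 tested, 9 were called lower on day 9 and 0 higher, against 33.7% of all 11888 tested genes called in either direction. The median was -0.45 log2 for the transferases and -0.07 for all genes. MGST1 alone was not called, at 60.4, 60.5 and 60.8 TPM in controls and 55.0, 61.4 and 56.8 in deprived cells (-0.07 ± 0.06 SE, adjusted p = 0.421).

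GSTZ1 had the largest log2 difference, from 9.95, 11.6 and 12.4 TPM in controls to 6.31, 6.03 and 6.40 in deprived cells (-0.76 ± 0.10 SE, adjusted p = 0.000355). MGST3 read 165, 143 and 129 against 92.4, 97.1 and 85.9 (-0.65 ± 0.09 SE, adjusted p = 0.000326) and GSTA2 26.6, 26.4 and 27.3 against 18.2, 20.5 and 14.5 (-0.58 ± 0.11 SE, adjusted p = 0.00261). The groups did not overlap for these 3 genes, nor for the other genes called lower in Caco2. GSTP1, near absent from HepG2, was measured here at 1322, 1304 and 1252 TPM in controls and 1029, 1036 and 949.8 in deprived cells (-0.36 ± 0.05 SE, adjusted p = 0.000253). GSTK1 gave -0.52 ± 0.09 (SE, adjusted p = 0.00168), GSTO1 -0.48 ± 0.07 (SE, adjusted p = 0.000488), MGST2 -0.42 ± 0.06 (SE, adjusted p = 0.000452) and GSTA4 -0.31 ± 0.07 (SE, adjusted p = 0.00906). GSTA1 was the least certain, at 13.4, 11.4 and 11.7 against 9.44, 10.2 and 9.07 TPM (-0.31 ± 0.10 SE, adjusted p = 0.0295). Its call was lost without replicate 1 or 3 of either medium (adjusted p = 0.0515 to 0.096), and under quantile (0.0612) and median scaling (0.0744).

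Genes that make glutathione were higher in the same cells. Of 7 synthesis and reduction genes, 5 were higher (GCLC 1.20, the cystine transporter SLC7A11 1.16, GCLM 1.06, SLC3A2 0.99 and GSR 0.96) and GSS was lower (-0.40), the median being 0.99 log2. Of 14 genes on the peroxidase, glutaredoxin and glyoxalase list 2 were higher, GPX2 (1.14) and GPX4 (0.18), and 2 lower, GPX7 (-0.54) and ESD (-0.23). Breakdown genes included CHAC1 at 1.19 and ACY1 at -1.01, the 2 called of 7. Exporters included ABCC5 at 1.21, ABCC1 at 0.75 and ABCC3 at -0.38, 3 being higher and 1 lower of 7. Enterocyte markers summed to 104 to 112 TPM in deprived cells against 154 to 161 in controls (4 lower and MUC13 higher of 5 tested), and hepatocyte markers, which this line also holds, to 1369 to 1549.9 against 2493 to 2628 TPM (7 of 7 lower). Their part in the transferase values was not tested. HepG2 and Caco2 were in separate tables, so the difference between the lines was not tested.

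Mouse hepatocytes showed small differences. With Ad-Cont, 3 of 10 transferases were called, 2 higher and 1 lower (9.78% of all 12155 tested genes). Gsta4 rose from 154, 169 and 140.2 TPM in controls to 234, 212 and 188 without the vitamin (0.45 ± 0.09 SE, adjusted p = 0.00731). Gsto1 fell from 90.2, 93.9 and 74.8 to 58.5, 62.6 and 65.1 (-0.46 ± 0.08 SE, adjusted p = 0.00156). Gsta2 read 25.5, 20.7 and 24.5 against 43.6, 42.0 and 25.5 (0.60 ± 0.16 SE, adjusted p = 0.0384). The first 2 of these calls had no overlap between groups and held with each library left out, while that of Gsta2 was lost without any 1 control library or without deprived replicate 1 or 2 (adjusted p = 0.0685 to 0.134).

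The other 7 were not called with Ad-Cont. Mgst1, at 633 ± 19.6 TPM (SD, n = 3) in controls, differed by 0.13 ± 0.04 log2 (adjusted p = 0.0754) and Gstp1, at 112 ± 1.73 TPM, by -0.21 ± 0.13 (adjusted p = 0.361). Gstp1 has relatives in mouse, Gstp2 and Gstp3, whose likeness to it was not measured here, so its reads may be uncertain. With Ad-Cre limma called 0 of 10 (0.329% of all genes), with 6 of 10 at an unadjusted p under 0.05 and 2 by voom, Gsta4 and Mgst1. Over all 12155 tested genes, 1227 had an unadjusted p under 0.05 in that comparison, and voom called 112. Gsta4 read 164, 158 and 143 TPM in controls and 175, 207 and 201 without the vitamin there (0.32 ± 0.09 SE, adjusted p = 0.193). Leaving out control Ad-Cre replicate 3 made Gstp1 called (0.51, adjusted p = 0.0202).

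The difference between the effects with Ad-Cre and Ad-Cont was called by limma for 0 of 10 (0.247% of all genes), with 2 at an unadjusted p under 0.05 and 0 by voom, and for Gstp1 without control Ad-Cre replicate 3 (0.72, adjusted p = 0.0123). Gsta4 differed by -0.12 ± 0.13 (SE, adjusted p = 0.748) and Gsto1 by 0.21 ± 0.11 (SE, adjusted p = 0.427) between them. Over all genes 1598 had an unadjusted p under 0.05 for this difference of effects, and voom called 142. Ad-Cre itself, in controls, called 0 of 10 by limma (0.0247% of all genes), with 1 at an unadjusted p under 0.05 and 0 by voom. Among all genes it gave 995 with an unadjusted p under 0.05 and 6 called by voom. Ahr read 9.65 TPM in Ad-Cont and 7.79 in Ad-Cre controls, which does not check the deletion since the floxed exon is not given. With Ad-Cont, deprived cells against controls read 6.455 against 6.742 TPM for Cyp1a2 and 3.51 against 7.52 for Nqo1. With Ad-Cre they read 5.59 against 6.17 for Cyp1a2 and 4.57 against 4.90 for Nqo1.

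Some relatives outside the 10 were called in these hepatocytes too, mostly of the mu class. Of 14 other transferases tested with Ad-Cont, 4 were higher and 0 lower, with a median of 0.18 log2 over the 14, namely Gstm3 (8.65 to 19.4 TPM, log2 difference 1.09), Gstm2 (0.90), Gstm1 (0.40) and Gstt1 (0.28). Of 8 synthesis and reduction genes, Cbs was higher (0.63) and Gsr lower (-0.29). Gpx3 (-1.13) was the 1 gene called of 14 on the peroxidase, glutaredoxin and glyoxalase list. Chac1 was higher (0.47) and the exporter Abcc4 lower (-0.47). Hepatocyte markers summed to 12829.5 to 14319.8 TPM in deprived cells against 13926 to 14378 with Ad-Cont, 3 of 8 being higher and 2 lower, and the controls held the urea cycle genes Cps1 at 4.58 TPM and Ass1 at 8.78 TPM. Macrophage markers summed to 68.8 to 149.8 against 75.0 to 87.4 TPM, with Cd68 at 102 against 68.9 and Csf1r and Cd5l lower, and their part in the result was not tested.

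In mouse liver 2 of 8 transferases were called (3.41% of all 10820 tested genes), Gstp1 lower and Mgst3 higher. The 8 columns name the diet but not the animal. Gstp1 (mm10 chr19:4035411-4037912) read 655, 644, 916 and 627 TPM in control livers and 169.8, 200.2, 343 and 377 in deprived ones, with every deprived liver below every control (-1.44 ± 0.25 SE, adjusted p = 0.0192). Mgst3 (chr1:167372384-167393797) read 9.13, 10.1, 11.9 and 14.3 against 17.4, 30.8, 22.5 and 18.5 TPM, also apart (0.90 ± 0.18 SE, adjusted p = 0.0245). The Gstp1 call was lost without the control at 655 TPM or that at 916 TPM (adjusted p = 0.0674 each) or without the deprived liver at 200.2 TPM (0.0542). The Mgst3 call was lost without the control at 9.13 TPM (0.1), the control at 11.9 TPM (0.0814), the deprived liver at 30.8 TPM (0.0586) or that at 22.5 TPM (0.0607), and without the filter (0.076) and under quantile (0.054) and median scaling (0.0631).

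**Figure D5:**
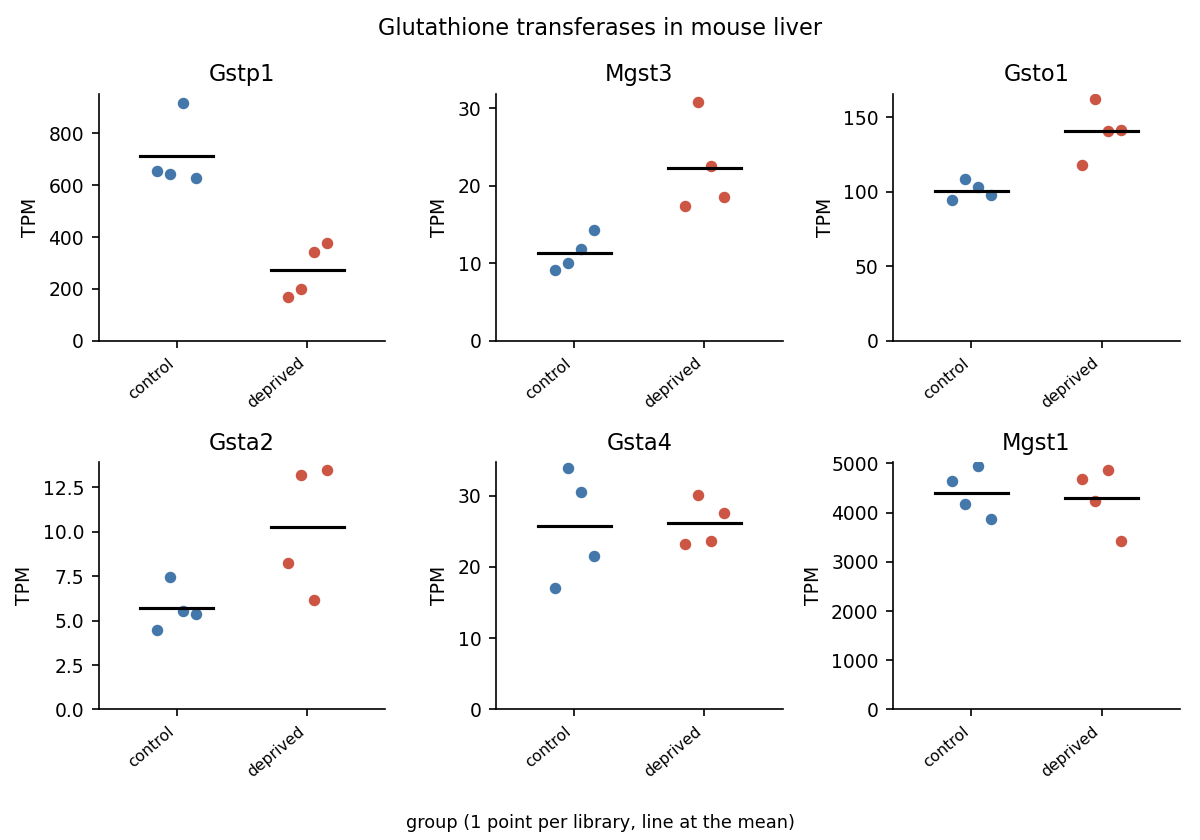
TPM of 6 transferases (y axis, linear from 0) in livers of control and deprived mice, 1 point per library with a line at the mean. Gstp1 is lower and Mgst3 higher in all 4 deprived livers, while Gsta4 and Mgst1 overlap.

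Gsto1 and Gsta2 leaned upward without passing the threshold. Gsto1 read 94.2, 108, 103 and 97.5 TPM in controls and 118, 163, 141 and 141 in deprived livers, groups that do not overlap (0.47 ± 0.12 SE, adjusted p = 0.0562), and passed without the deprived liver at 118 TPM (adjusted p = 0.0354). Gsta2 read 4.47, 7.46, 5.55 and 5.39 against 8.25, 13.2, 6.15 and 13.5 (0.70 ± 0.23 SE, adjusted p = 0.0979) and passed without the deprived liver at 6.15 TPM (0.0452). Mgst1 was at 4638, 4174, 4949 and 3859.9 TPM in controls and 4672, 4231, 4861 and 3430.2 in deprived livers (-0.04 ± 0.15 SE, adjusted p = 0.884). Gsta4, Gstk1 and Gstz1 were not called either, at 0.06, -0.04 and -0.12 log2. Gsta1 and Mgst2 stayed under the filter, with at most 0.063 and 0.104 TPM in control livers.

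Among 15 other transferases tested in liver, Gstt3 was called higher (18.7 to 39.8 TPM, log2 difference 1.10). Gstm1 (259 to 544 TPM, log2 difference 1.00, adjusted p = 0.0648) was not called. Of the relatives of Gstp1, Gstp2 read 1.44 and 1.02 TPM and Gstp3 8.30 and 9.84 TPM in control and deprived livers, neither called. The synthesis and reduction list had 0 called of 7 by limma (4 at an unadjusted p under 0.05, 0 by voom) and the exporters 0 of 4 (1 and 0). Over all 10820 tested genes, 2757 had an unadjusted p under 0.05, and voom called 302. Hagh (-0.62) was the 1 peroxidase or glyoxalase gene called of 12, and Nat8 (-1.58), which acetylates cysteine conjugates, the 1 breakdown gene called of 10. Deprived against control livers read 82.5 against 119 TPM for Cyp1a2, 7.30 against 4.23 for Nqo1 and 12.7 against 6.99 for Ahr. Summed markers in deprived against control livers were 53521 to 72818 against 51287 to 60725 TPM for hepatocytes, 64.3 to 96.5 against 80.5 to 91.7 for macrophages, 56.8 to 72.4 against 42.1 to 62.1 for endothelium and 1.59 to 3.43 against 1.90 to 3.93 for bile ducts. Their part in the transferase values was not tested.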

How the data were processed

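Expression was read from 8 deposited tables that cover 98 libraries, in which the authors give TPM per gene, written by HOMER per the file headers. The submitters' processing notes name STAR, HOMER and Bowtie2, and as builds hg38 and mm10, without roles or versions. Libraries were made with a 3′ kit per the labels' protocols, which speak of cultured cells only. Trimming and aligner options: not given in the sources used here. Division by transcript length suits whole-transcript reads, so levels were not compared between genes. The listed transcript differs between tables for GSTK1, GSTO1, GSTZ1, Gstz1 and Mgst1, so their levels were not compared across tables. TPM of the listed genes sum to 359500 to 405213 per human and 569555 to 581347 per mouse library.

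Each table was fitted by itself with limma 3.58.1 (R 4.3.3) on log2(TPM + 1), as group means with trended, robust eBayes, on genes with at least 1 TPM in 3 libraries (4 in liver). An effect difference is the effect with inhibitor, AhR gRNA or Ad-Cre minus that without, or day 12 minus day 3. Low TPM were whole multiples of 1 read in 100% of values (within 0.1 read, transcripts up to 3000 bases, up to 20 reads), and these reads gave the depths and the voom alternative. Other alternatives were a pseudocount of 0.1, no filter, quantile normalization, scaling to a common median, a replicate block, GSTA1 and GSTA2 summed, and each library left out. Samples fell into 32 groups by label; 8 liver columns, matched by diet only, stand for 10 labelled livers. The 10 genes are named wherever listed; from the other lists, the 2 highest and 2 lowest called, with some genes named in advance of the fit. The 10 genes and all lists were chosen with earlier results of these data known. The fit was checked on simulated data. Promoters are RefSeq windows of GRCh38.p14.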

Additional observations from a re-analysis of the deposited data

Results flagged for a closer look

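Among the 4 control livers, a library stood far above the others for Gstp1 (916 TPM, the others at 627 to 655). For Gsta1 (0.063 TPM) and Mgst2 (0.104 TPM) a library differed from the others by 1 read against 0, which is within counting error. For normally distributed values, chance gives such a library in about 1 in 20 groups. That rate does not apply to Gsta1 and Mgst2, where a lone read beside libraries at 0 is always flagged.

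The deprivation effect in HepG2 differed between day 12 and day 3 by 1.66 log2 for GSTA1, 2.89 for GSTA2, 0.66 for GSTA4, 0.89 for GSTO1, 1.95 for MGST1, -0.45 for MGST2 and 0.51 for MGST3, each past the threshold for the difference of effects.

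With the AhR inhibitor the effect differed from that without it by -1.66 for GSTA1, -2.52 for GSTA2, -0.81 for MGST1, 0.50 for GSTA4, 0.38 for GSTK1, 0.69 for GSTO1, 0.72 for GSTZ1, 0.54 for MGST2 and 0.46 for MGST3. The inhibitor and the header dates cannot be told apart in these values.

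With the IDO/TDO inhibitor it differed by -2.12 for GSTA1, -2.85 for GSTA2, -0.60 for GSTA4, -0.79 for GSTO1, -2.82 for MGST1 and 0.76 for MGST2.

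With the AhR gRNA it differed by -0.95 for GSTA1, -1.30 for GSTA2, -0.48 for GSTO1, -0.72 for MGST1 and -0.68 for MGST3.

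The Kyn effect differed with the AhR inhibitor by 0.72 for GSTA1, -0.69 for GSTA4, -0.52 for GSTK1, -0.78 for MGST1 and 0.28 for MGST2.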

How the results depend on the processing

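Under the other settings 3379 values kept their side of the threshold, 129 lost a call and 50 gained one. A change of sign with a call in neither fit is counted among the 3379. In 8 values the sign changed with a call in at least 1 of the fits. With GSTA1 and GSTA2 summed, these were GSTA2 between days 3 and 12 in controls (0.45) and with the AhR inhibitor (-0.28). Under quantile and median scaling, GSTZ1 without the IDO/TDO inhibitor (-0.27 and -0.27) was among them. So were GSTK1 (0.0019 and 0.0169) and MGST3 (0.24 and 0.25) for that inhibitor in deprived cells. The summed fit holds the TPM of GSTA1, and in the scalings the median of all genes was shifted. The cause was not tested further. Counts of members called changed by over 1.5 times in these cases. Between days 3 and 12 in deprived cells 7 became 4 under quantile and 4 under median scaling. With the IDO/TDO inhibitor 0 became 1 with voom, 2 with the replicate block, and 0 to 1 with a library left out. For the AhR gRNA in deprived cells 0 became 1 with voom and 0 to 1 with a library left out. For Kyn 8 became 5 to 7 with a library left out, and its effect difference fell from 5 to 3 without the filter and 3 under median scaling. With Ad-Cre 0 became 2 with voom and 0 to 1 with a library left out, and its effect difference 0 to 1. In liver 2 became 1 without the filter, 1 under quantile and 1 under median scaling, and 0 to 3 with a library left out. The cause was not tested. Replicate numbers are shared between groups, but same-numbered libraries did not deviate together (correlations -0.108 to 0.187, over 0.1 in 1 of 84 and 1 of 18 for the time course and the IDO/TDO table), so the block was not used for the values above; among the members it changed the calls of GSTA1 (adjusted p = 0.0302) and GSTA2 (0.0412) with the IDO/TDO inhibitor and of GSTA1 in Caco2 (0.0514). In liver no paired analysis was possible because its columns carry no number. Depth limits GSTP1 in HepG2 and Gsta1 and Mgst2 in liver.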
